A study of Mus musculus with 12 samples.

Results

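The cytosolic ribosomal protein genes were followed in Myc-CaP, a line of mouse prostate cancer cells with high Myc. The 76 members were the rows of the count table whose symbol is Rpl or Rps with a number, with or without a final a or x, together with Rplp0, Rplp1, Rplp2 and Rpsa. They made up 76 of 55216 rows, of which 30 code for proteins of the small subunit and 46 for proteins of the large subunit. Cultured cells were untreated (Ctrl), or were exposed for 48 h to interferon γ (IFNγ) at 200 pg (IFN200) or 2000 pg (IFN2000, both per ml in the study's text), to the platinum drug oxaliplatin (Oxali) at 2 μM, or to Oxali with either dose of IFNγ (Combo200 and Combo2000). RNA-seq was made from 2 libraries in each of the 6 groups. All 12 libraries come from this single cell line, nothing in the labels says that replicates were separate cultures, and p-values therefore measure the spread between libraries, which may be technical.

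Groups follow the sample titles. The agent label disagrees with the title for the 6 libraries of single treatments: those titled IFN200 carry Oxali, those titled IFN2000 carry IFNγ 200 pg, and those titled Oxali carry IFNγ 2000 pg. Titles and agents do not conflict for Ctrl and the combinations. In edgeR's quasi-likelihood test (adjusted p under 0.05) the libraries titled Oxali differed from Combo2000 in 574 of 13177 genes and from Combo200 in fewer, whereas those titled IFN200 and IFN2000 differed from the combination with the same dose in 9217 and 9522. Library totals ran from 18749975 to 25931516 counts. Among epithelial and line markers, Myc was read at 126 to 152 and Krt8 at 18.6 to 23.9 CPM. These are counts relative to each library's total after TMM scaling. Epcam was at 0 in every library and Cdh1 and Krt18 were at or below 0.276 CPM. IFN2000 replicate 2 held counts for 8 of 9 T cell markers, which summed to 17.8 CPM there and to at most 0.734 CPM in any other library. The 0.734 CPM was that of Combo200 replicate 3, with 5 of 9 markers detected. IFN200 replicate 1 held counts for 8 of 8 heart muscle markers, summing to 7.81 CPM. In the 5 other libraries without Oxali this sum was 0.835 to 1.27 CPM, and in the 6 with Oxali it was 3.06 to 5.94 CPM, with 2 to 6 of 8 markers detected and Tnnt2 the highest. Markers of macrophages summed to at most 15.6 CPM without and 16.4 to 18.9 CPM with Oxali (2 or 3 and 4 of 5 detected), and Adgre1 was at 0 throughout. Markers of fibroblasts summed to 9.95 to 17.4 CPM without and 20.9 to 25.6 CPM with Oxali (1 to 3 of 5 detected), nearly all of it Pdgfra, and Lum was at 0 throughout. The part of these markers in the results was not tested.

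Ribosomal proteins are the structural proteins of the cytosolic ribosome, in which the small subunit decodes mRNA and the large subunit joins amino acids. Their genes are among the most highly expressed in growing cells. Their mRNAs typically begin with a 5′ terminal pyrimidine tract, a run of C and T letters in the gene that lets mTOR signalling control translation, and Myc is a known activator of ribosome production. A few members also act outside the ribosome. Rpl5 and Rpl11, which carry 5S ribosomal RNA, and Rpl23 can bind Mdm2, the ligase that keeps p53 low.

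To show what the members share at their start sites, 30 bases around an annotated start are given for 7 genes described below. They come from RefSeq (build GRCm38.p6), from 10 bases before the start, on the strand of the gene. A further listed start of Rpl10a, also without the tract, is not shown. Capitals mark a tract of 8 or more C and T letters that opens with C.
Rpl13a, chr7:45128726-45128755, minus strand: cctgcgacaagaCCTCCTCCTTTCCCaggc
Rps6, chr4:86857348-86857377, minus strand: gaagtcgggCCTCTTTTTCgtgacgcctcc
Rplp2, chr7:141447641-141447670, plus strand: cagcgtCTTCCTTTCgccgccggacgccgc
Rps27, chr3:90213629-90213658, minus strand: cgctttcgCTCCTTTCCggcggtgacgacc
Rpl10a, chr17:28328555-28328584, plus strand: atttgagcgcatgcgcaaagcgctctgcct
Rpl41, chr10:128549149-128549178, minus strand: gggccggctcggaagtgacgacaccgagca
Rplp0, chr5:115559457-115559486, plus strand: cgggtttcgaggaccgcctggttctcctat

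The first 4 hold such a tract beside the annotated start, and the last 3 do not. Of the 76 members, 56 were matched by symbol in the table of starts, with 66 starts. The tract, searched on the transcribed strand, lay in this 30-base window at 23 of the 66 starts, or 34.8%, against 8.68% of all 32851 starts. Over a 100-base window the shares were 81.8% and 28.8%. The letters CACGTG, which read the same on both strands and can share at most their first C with a tract, were found within 300 bases (250 before and 50 after the start) of 12.1% of member starts and 7.15% of all starts. An annotated start can differ from the start used in these cells, so a window without the tract says only that these letters are not there.

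Members took a large part of each library, and that part was smaller in all libraries with Oxali. Of all counts, members held 4.87% and 4.81% in Ctrl, 4.71% and 4.79% in IFN200, and 5.31% and 4.93% in IFN2000 replicates 2 and 3. With Oxali alone the share was 3.53% in each library, whereas Combo200 had 3.63% and 3.74%, and Combo2000 had 3.56% and 3.72%. The 6 libraries with Oxali did not overlap the other 6. Group means were 4.84% ± 0.0366 (SD, n = 2) in Ctrl, 3.53% ± 0.00322 (n = 2) in Oxali and 5.12% ± 0.266 (n = 2) in IFN2000, whose spread was the widest of the 6 groups. Between any 2 groups of 2 libraries the smallest two-sided p that an exact permutation test allows is 0.333, and no test was made on these shares. In bulk RNA, fewer cells that express a gene and less of its RNA per cell cannot be told apart, and a share of counts says nothing of the absolute amount of RNA.

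**Figure D1:**
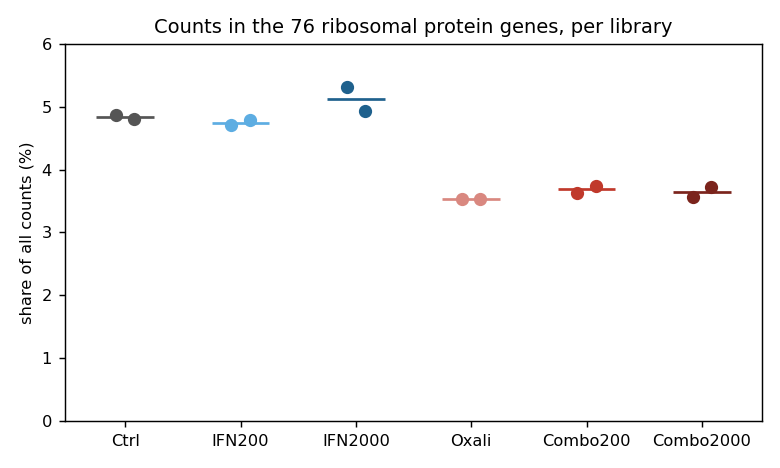
Share of all counts that fell in the 76 ribosomal protein genes (y axis, %) in each of the 12 libraries, by group (x axis); points are libraries and lines are means of 2. The 6 libraries with Oxali sit between 3.53% and 3.74% and the other 6 between 4.71% and 5.31%.

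Levels differed widely among members. Per kilobase of transcript in Ctrl, the median over members was 685 CPM, the highest level was 3335 CPM for Rplp1 and the next 2501 CPM for Rplp0. Both are proteins of the P-stalk, the flexible arm of the large subunit that recruits translation factors. The lowest were Rpl24 at 0.393, Rps10 at 5.57 and Rpl23a at 15.1 CPM per kilobase, and these 3 held under 300 counts in every library. Rpl24 held 2 to 12 counts per library, near the floor of 3 counts, and was the only member removed by the filter on low counts, so that 75 members were tested. Annotation bears on these values. In GENCODE vM21, 71.5% of the Rpl24 transcript overlaps another gene on the same strand (Gm28037), 53.6% of Rps10 overlaps RPS10-NUDT3 on the same strand, and 55.4% of Rpl23a overlaps Tlcd1 on the other strand. In 43 of 76 members at least 50% of all 50-base windows also occur in another annotated gene, with 98.6% of windows in Rps27, so reads of many members can be split or lost and their levels are uncertain. Over the 29 tested members with fewer shared windows and no exon overlap, the median change with Oxali was the same as over all 75 (log2 −0.61).

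To ask which ribosomal protein genes responded to Oxali, all 13177 genes that passed the filter were compared with Ctrl. Of the 75 members tested, 71 fell and 0 rose in edgeR's quasi-likelihood test (Benjamini-Hochberg adjusted p under 0.05), with a median log2 fold change of −0.61, or 0.656 of the Ctrl level. Among all genes 32.8% fell and 34.8% rose, with a median of 0.02. The fall took in 29 of 30 small-subunit genes (median −0.56) and 42 of 45 large-subunit genes (median −0.64), and 8 of the 71 fell to less than 0.5 of the Ctrl level. In 67 of 75 members the 6 libraries with Oxali all lay below the 6 without it, as did 28.9% of all genes. The exceptions were Rpl23a, Rpl41, Rplp0, Rplp1, Rps21, Rps27, Rps28 and Rps29. In no member did all 6 lie above, against 31.8% of all genes.

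The largest fall was that of Rpl3 (chr15:80077791-80091868), a protein close to the peptidyl transferase centre. It was read at 1071 and 1065 CPM in Ctrl, 1010 and 1026 in IFN200 and 1099 and 1038 in IFN2000, against 351 and 342 with Oxali alone, 361 and 376 with Oxali and 200 pg, and 345 and 356 with Oxali and 2000 pg. The 6 libraries with Oxali were far below the other 6, and lay close to each other. The log2 fold change with Oxali was −1.62 ± 0.04 (SE; edgeR adjusted p = 2.57e-17). Rpl13a (chr7:45125558-45128761), also known for its release from the ribosome in the IFNγ-activated inhibition of translation, read 128 and 121 CPM in Ctrl and 47.8 and 45.4 in Oxali. Its change was −1.42 ± 0.04, and its levels of 119 and 118 CPM in IFN200 and 121 and 118 in IFN2000 lay at or below those of Ctrl. In the annotation 59.3% of the Rpl13a transcript overlaps other genes on the same strand. Rpl10a (chr17:28328471-28331033) read 290 and 285 CPM in Ctrl and 112 and 109 in Oxali, a change of −1.38 ± 0.05. Rpl7 (−1.09 ± 0.04), Rpl5 (−1.07 ± 0.04), Rps4x (−1.05 ± 0.04), Rpl7a and Rpl14 were the other members that fell to less than 0.5 of the Ctrl level.

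Rpl5, Rpl11 and Rpl23, which can bind Mdm2, all fell, as 71 of the 75 members tested did. Rpl5 read 857 and 849 CPM in Ctrl and 402 and 410 in Oxali. Rpl11 read 603 and 602 CPM in Ctrl and 418 and 413 in Oxali, a smaller change of −0.54 ± 0.04. Rpl23 read 726 and 722 CPM in Ctrl and 398 and 420 in Oxali, a change of −0.83 ± 0.04. In all 3 the 6 libraries with Oxali lay below the 6 others, as in 67 of 75 members and 28.9% of all genes. Mdm2 itself, a p53 target, rose by 0.64 ± 0.05 on the log2 scale (edgeR adjusted p = 4.35e-10). Rps6, whose phosphorylation is the common readout of mTOR signalling, fell from 511 and 500 CPM to 277 and 267 (−0.90 ± 0.04). Rps3, which also has a role in DNA repair, fell from 1897 and 1809 CPM to 1081 and 1048 (−0.80 ± 0.04). Rps27a, made as a fusion with ubiquitin, changed by −0.55 ± 0.04, and Rpl22, an RNA-binding protein of the large subunit, by −0.47 ± 0.04. Rpsa, also known as the laminin receptor, fell less, from 1676 and 1658 to 1323 and 1361 CPM (−0.31 ± 0.04).

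**Figure D2:**
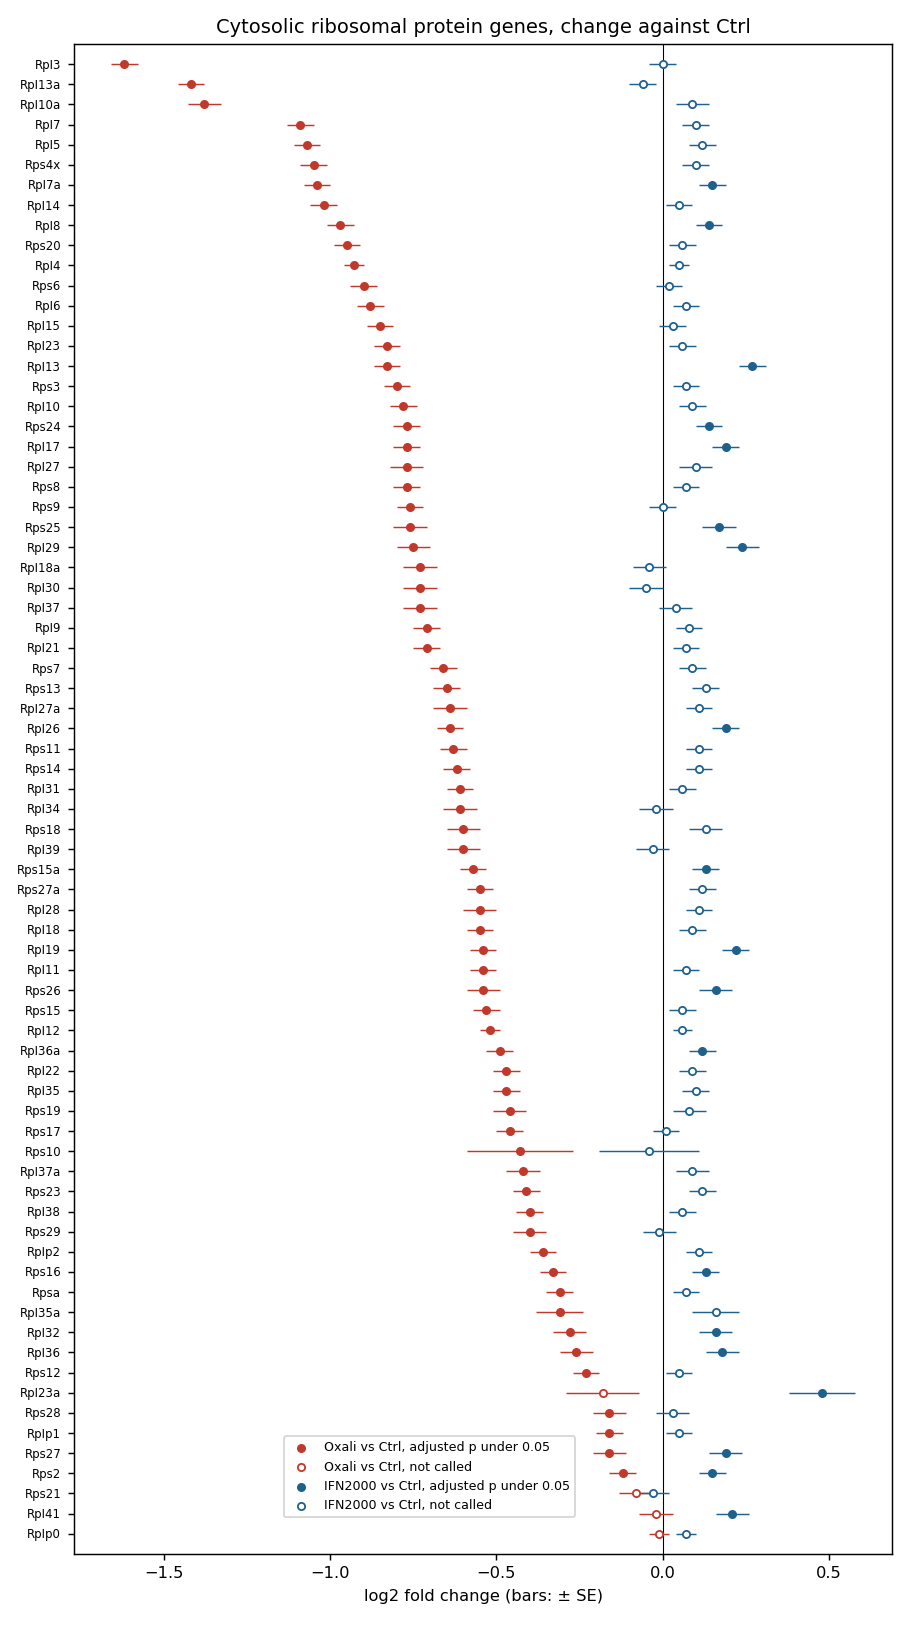
Log2 fold change against Ctrl (x axis, points, with bars of ± 1 SE) for 74 of the 75 members tested (y axis, ordered by the change with Oxali), in Oxali (red) and IFN2000 (blue); filled points passed an adjusted p of 0.05. Oxali values run from −1.62 for Rpl3 to −0.01 for Rplp0, and IFN2000 values from −0.06 to 0.48.

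The 4 members that did not pass the test with Oxali were Rplp0, Rpl41, Rps21 and Rpl23a. Rplp0 (chr5:115559467-115563727), the base of the P-stalk and often used as a reference gene in qPCR, read 3408 and 3385 CPM in Ctrl, 3417 and 3353 with Oxali alone, and 3238 to 3422 in the 4 libraries of the combinations. These groups overlap, and the change with Oxali was −0.01 ± 0.03 (edgeR adjusted p = 0.904). With trends with length and GC content removed it was 0.07 ± 0.02 (edgeR adjusted p = 0.0136). Because the other members were lower, Rplp0 took 9.45% to 10.1% of all member counts in libraries with Oxali and 6.58% to 6.76% without. Its partners in the stalk differed from it: Rplp2 fell from 1323 and 1329 to 1033 and 1033 CPM (−0.36 ± 0.04), and Rplp1 from 1669 and 1659 to 1500 and 1483 CPM (−0.16 ± 0.04), although the sign of the Rplp1 change turned to 0.02 when a trend with transcript length was removed.

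Rpl41 (chr10:128548114-128549305), which codes for the shortest ribosomal protein, read 543 and 537 CPM in Ctrl and 532 and 534 in Oxali (−0.02 ± 0.05), and 0.17 ± 0.04 with the length correction (edgeR adjusted p = 0.000333). Rps21 (chr2:180257377-180258445) read 416 and 394 CPM in Ctrl and 387 and 378 in Oxali (−0.08 ± 0.05, edgeR adjusted p = 0.136), and 0.13 ± 0.04 with the length correction (edgeR adjusted p = 0.00309). Rps27, a zinc-finger protein of the small subunit, read 438 and 416 CPM in Ctrl and 383 and 382 in Oxali, a fall of −0.16 ± 0.05 (edgeR adjusted p = 0.005) that turned to 0.07 with the length correction and lost the call under upper-quartile scaling (adjusted p = 0.0542) and without Ctrl replicate 1 (adjusted p = 0.0713). Rps2 changed by only −0.12 ± 0.04 and Rps28 by −0.16 ± 0.05. Rpl23a, with few counts, changed by −0.18 ± 0.11. Members with the weakest changes were thus found in both subunits.

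**Figure D3:**
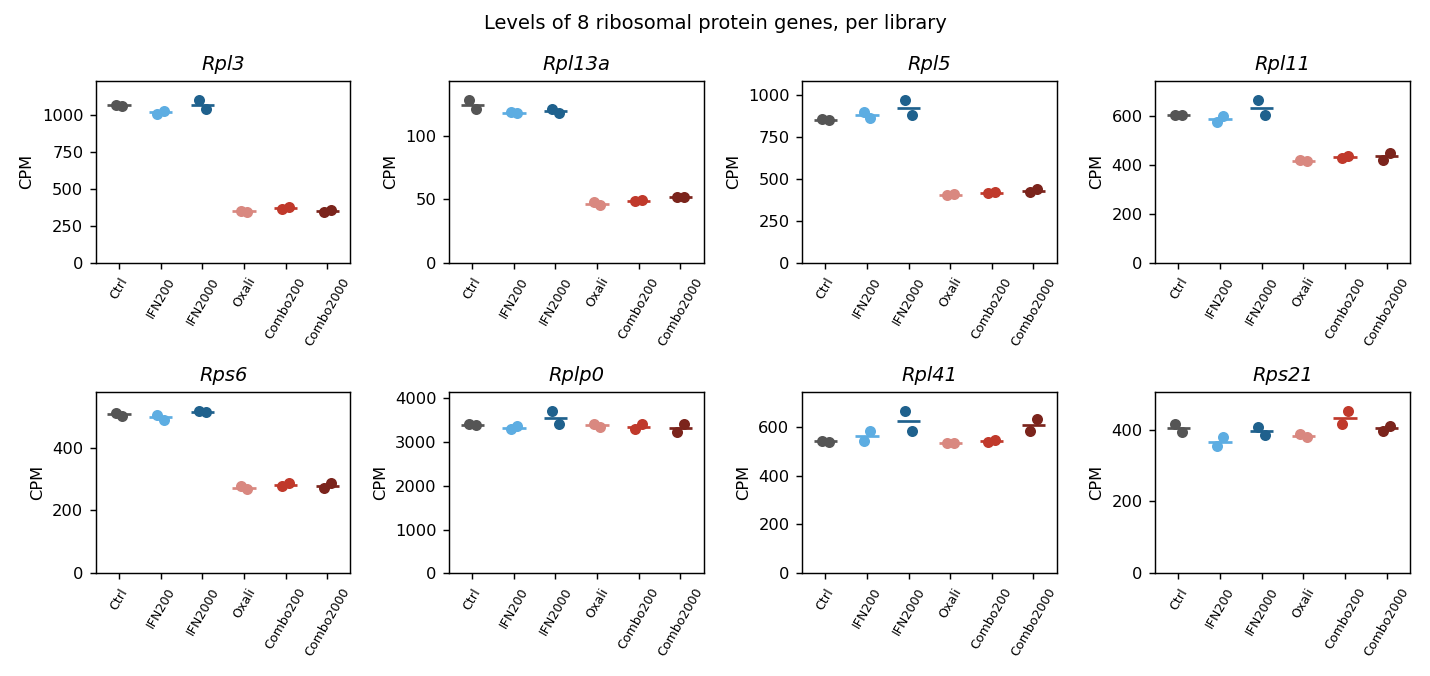
CPM (y axes, from 0) of 8 members in the 12 libraries by group (x axes); points are libraries and lines are means of 2. In Rpl3, Rpl13a, Rpl5, Rpl11 and Rps6 the libraries with Oxali lie below all others, whereas in Rplp0, Rpl41 and Rps21 they overlap.

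The size of the fall followed the length of the protein. Members with a coding length under 300 bases (n = 9) had a median of −0.40, those from 300 to under 450 (n = 27) of −0.53, those from 450 to under 600 (n = 18) of −0.63 and those of 600 or more (n = 21) of −0.90. Across the 75 members Spearman's rho between the log2 change with Oxali and coding length was −0.56, and with transcript length −0.49. Members share libraries, depth and base composition, so the values are a description. The log2 change had a rho of 0.27 with GC content, −0.04 with the share of repeated windows and 0.13 with the level per kilobase in Ctrl. With the trend of all other genes with length removed, rho with coding length was −0.58. Among other genes the order was the opposite: in Oxali replicate 1 their median log2 ratio to Ctrl was −0.14 for transcripts under 600 bases and 0.05 for those of 4000 bases or more, and in replicate 2 it was −0.15 and 0.07. Members departed from the order too, with Rplp0, Rps2 and Rpsa among the long and little changed, and Rps20 (−0.95 ± 0.04) and Rpl39 (−0.60 ± 0.05) among the short.

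**Figure D4:**
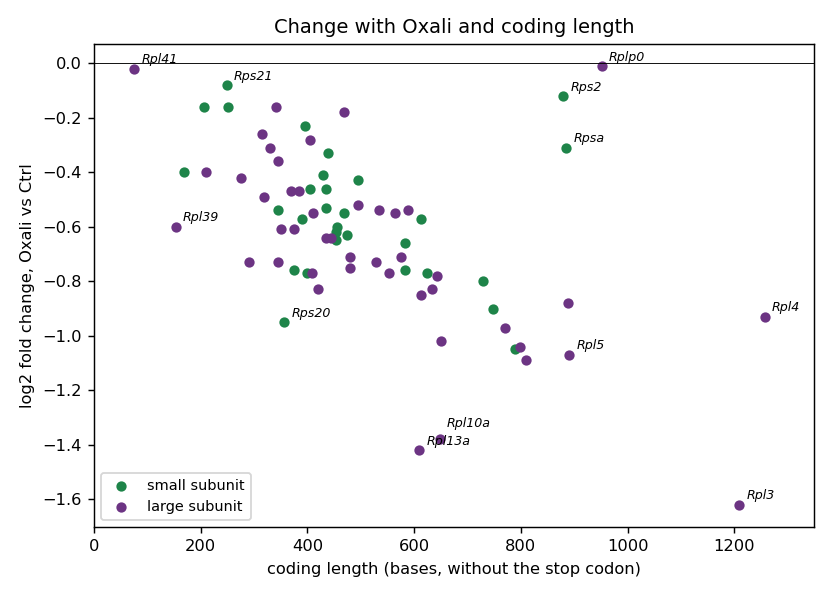
Log2 fold change with Oxali (y axis) against coding length in bases (x axis) for the 75 members tested, by subunit; each point is a gene and 12 genes are named. Members with 600 coding bases or more had a median of −0.90, against −0.40 for those under 300.

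Members were also split by whether the tract lay in the 30-base window. The 23 members with the tract within the 30-base window all fell, with a median of −0.57 (range −1.42 to −0.16). The 32 tested members with listed starts but no tract in that window had a median of −0.62 (range −1.38 to −0.01). The 20 members that were not in the table had a median of −0.67. Rpl13a, with a tract, and Rpl10a, without one at any listed start, were both among the 3 largest falls. No test of the difference was made.

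Other genes of the translation machinery were read beside the 32.8% of all genes that fell and the 34.8% that rose with Oxali. Of 17 tested genes outside the members known for a 5′ terminal pyrimidine tract, all 17 fell with Oxali (median −0.70). Eef1a1 and Eef2, the elongation factors, were among them at −0.96 ± 0.03 and −0.82 ± 0.03. Of 77 mitochondrial ribosomal protein genes, 57 fell and 5 rose, with a median of −0.26. Of 35 genes for subunits of complex I, whose transcripts are also short, 16 fell and 6 rose (median −0.12). A list of regulators of ribosome production also held Mdm2, which was among its rises. Of its 16 tested genes, 10 fell and 3 rose (median −0.31). Among its nucleolar proteins, which process ribosomal RNA, Ncl changed by −0.81 ± 0.03 and Fbl by −0.84 ± 0.06, Nop58 by −0.14 ± 0.04, and Nop56 was at 0.01 ± 0.04 (edgeR adjusted p = 0.909). Of the RNA polymerase I subunits, Polr1b changed by −0.60 ± 0.04 and Polr1a was at 0.04 ± 0.05 (edgeR adjusted p = 0.41), while Myc rose by 0.19 ± 0.04 (edgeR adjusted p = 0.000771). Of 7 tested relatives of ribosomal proteins outside the rule, 6 fell (median −0.41). Rpl22l1, the paralogue of Rpl22, fell from 63.1 and 56.7 CPM in Ctrl to 11.4 and 10.6 in Oxali, a log2 change of −2.44 ± 0.08 that exceeded that of every member. Rps3a1 changed by −1.04 ± 0.04, Fau by −0.27 ± 0.04, Rps27l, a p53 target, by −0.38 ± 0.04, and Rpl36al by −0.89 ± 0.21. Of 309 rows named as ribosomal protein pseudogenes, 44 passed the filter, of which 12 fell and 0 rose with Oxali (median −0.61), a share of falls below that of all genes.

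Adding IFNγ to Oxali left the members low. Against Ctrl, 68 of 75 members fell and 0 rose in Combo200 (median −0.50), where 33.1% of all genes fell and 35.6% rose. In Combo2000, 70 fell and 1 rose (median −0.54), where 33.5% of all genes fell and 35.7% rose. These comparisons share the Ctrl libraries with that of Oxali. Each combination was also set against its own dose of IFNγ, with the same combination libraries but without those of Ctrl. In Combo200 against IFN200, 67 members fell and 1 rose (median −0.48, background 33.5% and 36.5%). In Combo2000 against IFN2000, 73 fell and 0 rose (median −0.64, background 33.8% and 38.5%). In Combo2000 against Ctrl the largest falls were those of Rpl3 (−1.61 ± 0.04), Rpl10a (−1.36 ± 0.05), Rpl13a (−1.27 ± 0.04), Rps4x (−1.02 ± 0.04) and Rpl7 (−1.01 ± 0.04). The single rise was that of Rpl41, which read 581 and 633 CPM in Combo2000 against 543 and 537 in Ctrl (0.17 ± 0.05, edgeR adjusted p = 0.00665). It did not pass without Combo2000 replicate 3 (adjusted p = 0.122).

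Set directly against Oxali alone, the combinations differed little. In Combo200, 9 members were higher and 0 lower (median 0.08), where 1.58% of all genes were higher and 0.25% lower. These were Rpl39 (0.24 ± 0.05), Rpl26, Rps25, Rpl13, Rpl38, Rpl31, Rps14, Rps15a and Rpl21. Rpl39, a small protein in the wall of the exit tunnel, read 153 and 150 CPM in Oxali and 172 and 186 in Combo200, still below 239 and 220 in Ctrl. In Combo2000, 3 members were higher and 0 lower (median 0.06), where 3.37% of all genes were higher and 0.987% lower. They were Rpl41 (0.19 ± 0.05), Rpl26 (0.18 ± 0.04) and Rpl31 (0.15 ± 0.04). For 200 pg no member passed without Combo200 replicate 3, 2 passed without Oxali replicate 2, 5 without Oxali replicate 1 and 14 without either IFN2000 library. For 2000 pg no member passed without Combo2000 replicate 3 or Oxali replicate 2, 1 passed without either Ctrl or either Combo200 library, and 6 without either IFN2000 library.

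To ask what IFNγ did without Oxali, both doses were compared with Ctrl. At 200 pg, 0 of 75 members were called in edgeR, 12 had an unadjusted p under 0.05, and DESeq2 called 0; the background was 0.114% higher and 0% lower. Their median was −0.03, and the values ran from −0.14 to 0.41. At 2000 pg, 19 members were higher and 0 lower, with a median of 0.09 or 1.06 times the Ctrl level, where 8.39% of all genes were higher and 8.47% lower. These 19 comprised 7 small-subunit and 12 large-subunit genes. The 3 P-stalk members and the 3 members Rpl5, Rpl11 and Rpl23 were not among them in this fit. Rpl5, at 0.12 ± 0.04 (edgeR adjusted p = 0.0555), passed in DESeq2 (adjusted p = 0.0454), and all 6 passed without IFN2000 replicate 3.

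The largest rises at 2000 pg were small. Rpl23a read 8.90 and 8.06 CPM in Ctrl, 11.1 and 11.5 in IFN200, and 12.4 and 11.2 in IFN2000. Its change in IFN2000 was 0.48 ± 0.10 (edgeR adjusted p = 0.00391), on few counts and with an overlapping neighbour, and did not pass without IFN2000 replicate 2 (adjusted p = 0.0597) or Ctrl replicate 2 (adjusted p = 0.0603). Rpl13 read 453 and 449 CPM in Ctrl, 408 and 432 in IFN200 and 544 in both IFN2000 libraries, a change of 0.27 ± 0.04 (edgeR adjusted p = 0.000329). Rpl13 was thus lower with 200 pg and higher with 2000 pg, only the latter past the test. Rpl19 rose from 632 and 643 to 774 and 714 CPM (0.22 ± 0.04), and Rpl29 from 68.5 and 74.4 to 87.2 and 81.5 CPM (0.24 ± 0.05), a call lost without Ctrl replicate 1 (adjusted p = 0.0658). Rpl41 read 664 and 584 CPM in IFN2000 (0.21 ± 0.05), and the call was lost without IFN2000 replicate 2 (adjusted p = 0.162) or either Ctrl library.

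These rises were unequal between the 2 libraries at 2000 pg and went with transcript length across the whole table. In replicate 2, 72 of 75 members lay above the Ctrl mean (median log2 ratio 0.13), and in replicate 3, 56 (median 0.04). Without replicate 2 only 3 members were called, and 56 were called without replicate 3. Without Ctrl replicate 1 there were 7 and without Ctrl replicate 2 there were 3. Over 13024 genes, Spearman's rho between the log2 ratio to the Ctrl mean and transcript length was −0.36 and −0.19 for IFN2000 replicates 2 and 3. The IFN200 libraries had 0.15 and 0.07, the Oxali libraries 0.08 and 0.10, and the combinations 0.05 to 0.10. Set against the Oxali mean instead, the combinations had −0.19 to 0.00. Restricted to genes that averaged 50 counts or more, the IFN2000 values were −0.50 and −0.26. Shorter transcripts were thus read at higher levels in both IFN2000 libraries, and more so in the library that also held T cell markers.

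Members are short. Their median transcript length was 816 bases (345 in Rps27 to 5179 in Rps15a), against 2753 bases for all genes tested, and 68.4% of them were under 1000 bases, against 10.3%. In replicate 2 other genes had a median log2 ratio of 0.08 under 600 bases, 0.12 from 600 to under 1000, 0.09 from 1000 to under 2000, 0.02 from 2000 to under 4000 and −0.11 from 4000 bases on. Members in the first 3 of these classes had medians of 0.16, 0.14 and 0.11. In replicate 3 the values for other genes were 0.03, 0.04, 0.04, 0.01 and −0.04, and those for members 0.05, 0.05 and 0.03. Members thus lay within 0.08 of other genes of their length, with the widest gap under 600 bases in replicate 2 (0.16 against 0.08). The median over all members in that library was 0.13. Within members, rho with transcript length was −0.17 and −0.08 in these 2 libraries.

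**Figure D5:**
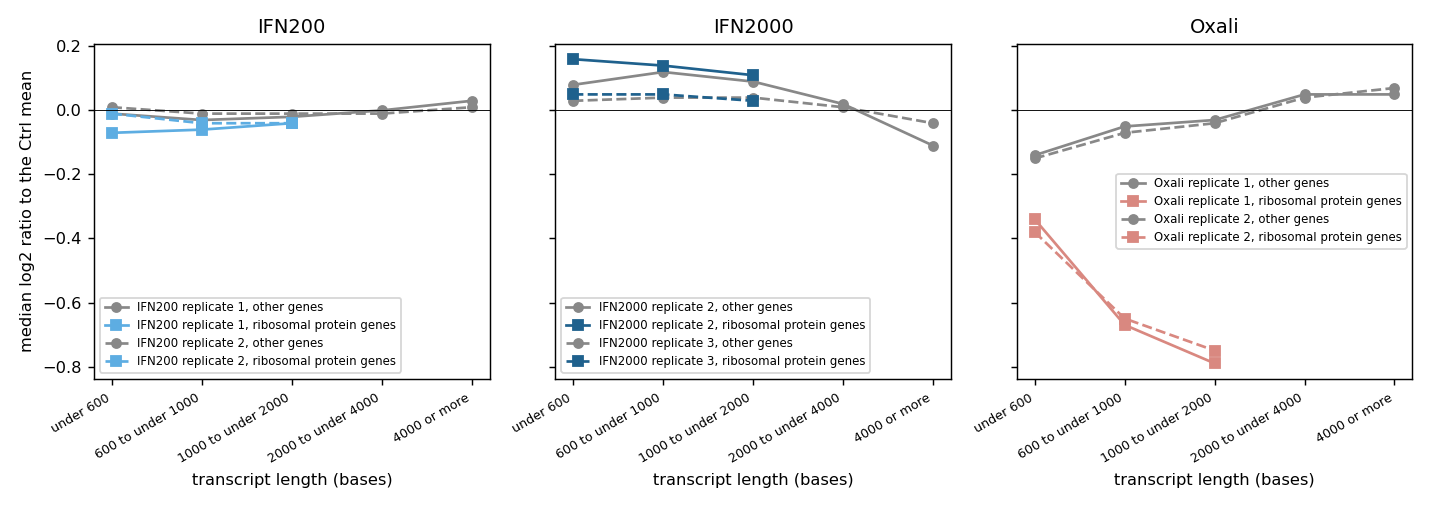
Median log2 ratio to the Ctrl mean (y axis) by class of transcript length in bases (x axis) in the libraries of IFN200, IFN2000 and Oxali; squares are ribosomal protein genes, circles all other genes, and solid and broken lines the 2 libraries. Under 600 bases, members were at 0.16 and other genes at 0.08 in IFN2000 replicate 2. In Oxali replicate 1 they were at −0.34 and −0.14.

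After the trend with length, fitted on genes other than members, had been removed, 10 members were higher and 2 lower in IFN2000, with a median of 0.03. With length and GC content both removed, 13 were higher and 3 lower. Without correction the shares of all genes were 8.39% higher and 8.47% lower. Those in the corrected fits are not given here. Rpl13, Rpl19, Rpl29 and Rpl23a were still called in both fits, and Rpl13a, at −0.12 with the length correction, was among those called lower. In Oxali the same correction left 65 of 75 members lower and 2 higher, with a median of −0.48. The uncorrected shares of all genes there were 32.8% lower and 34.8% higher. Of 77 mitochondrial ribosomal protein genes tested, from a list with a median transcript length of 1253 bases, 30 were higher at 2000 pg and 0 lower (median 0.15). Of 35 complex I genes tested, from a list with a median of 760 bases, 1 was higher and 0 lower (median 0.07), below the 8.39% of all genes. The trend with length was present in both IFN2000 libraries and the T cell markers in replicate 2 alone. The part of the T cell markers in the rises was not tested beyond the values without replicate 2.

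The interaction asks whether the log2 change with IFNγ differs between cells with and without Oxali. At 200 pg it was positive for 7 members and negative for 0 (median 0.12), where it was positive for 0.562% and negative for 0.137% of all genes. Rpl39 had the largest value, 0.37 ± 0.07 (edgeR adjusted p = 0.013), with 239 and 220 CPM in Ctrl and 205 and 215 in IFN200, but 153 and 150 in Oxali and 172 and 186 in Combo200. Rps21 (0.32 ± 0.07) read 353 and 380 CPM in IFN200 and 415 and 451 in Combo200, on either side of 416 and 394 in Ctrl. Rpl27 had a value of 0.32 ± 0.07. Combo200 replicate 3 held counts for 5 of 9 T cell markers, summing to 0.734 CPM. None of the 7 passed without IFN200 replicate 1, the library with heart muscle markers, or without Combo200 replicate 3. Without Ctrl replicate 1 or Oxali replicate 2, 1 member passed, and without Ctrl replicate 2, 3. At 2000 pg the interaction was negative for 1 member and positive for 0 (median −0.03), where 0.6% of all genes were negative and 2.12% positive. That member was Rpl23a at −0.68 ± 0.15 (edgeR adjusted p = 0.0193), with 6.52 and 6.42 CPM in Combo2000 and 8.06 and 6.87 in Oxali. It did not pass in DESeq2 (adjusted p = 0.077), nor without IFN2000 replicate 2 (0.0798), Ctrl replicate 2 (0.0919), Oxali replicate 1 (0.117) or Combo2000 replicate 2 (0.0685), and 5 members were called without IFN2000 replicate 3.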

How the data were processed

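For the 12 libraries the deposited values are raw counts of reads, with a row for each gene symbol. According to the study's methods and processing notes, reads were aligned with STAR 2.7.3a to GRCm38 with GENCODE models and counted with featureCounts; the notes also list RSEM 1.3.0, without a role. Use of strand and the handling of reads that fit several genes were not given in the sources used here. All 55216 rows named a gene.

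Counts were scaled by TMM, filtered with filterByExpr (minimum count 10, minimum total 15) and fitted in edgeR 4.0.16 (R 4.3.3) with its quasi-likelihood F test. All 12 libraries entered 1 model with a mean per group, since 2 libraries per group give few degrees of freedom. Calls used a Benjamini-Hochberg adjusted p under 0.05 over the 13177 genes tested. SE was taken as the size of the log2 change over the root of F. Ratios per library used log2(CPM + 0.1). The length correction was an offset from natural splines (5 degrees of freedom) fitted on genes other than members. Lengths, GC content, positions and overlaps came from GENCODE vM21, a later release on the same build, and start sites from RefSeq. A count of 0 allows up to 3 counts, or 0.111 to 0.167 CPM, a limit for counting error alone, because without molecular identifiers reads cannot be taken as separate molecules. The steps were tested on simulated data.

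Alternatives were upper-quartile and DESeq2 scaling, DESeq2 1.42.0, scaling without members, other filters, only the groups compared, a replicate block, length and GC corrections, and each library left out. Members, lists and the rule for named genes were chosen with earlier results of these data known. The rule took members with a known role, the largest called rises and falls, the shortest and longest transcripts, the highest and lowest levels and those removed by the filter. Rps2, Rps28, Rpl26, Rpl31, Rpl7a, Rpl14, the members called in an interaction beyond the first 3, and genes of the comparison lists were named after their values were seen. Same-numbered libraries did not deviate together (r from −0.0456 to 0.045), and the 2 libraries of a group differed by more than sampling noise (chi-square per degree of freedom 1.65 to 8.39). A few genes of the lists are not reported here.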

Additional observations from a re-analysis of the deposited data

Results flagged for a closer look

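In 7 of 75 members tested the response to IFNγ at 200 pg differed between cells with and without Oxali. This was a test of the difference itself (the interaction in edgeR, adjusted p under 0.05, on the log2 scale). The values were 0.37 for Rpl39, 0.32 for Rps21, 0.32 for Rpl27, 0.31 for Rpl34, 0.31 for Rpl38, 0.30 for Rpl13 and 0.24 for Rps14. In each case the response was more positive with Oxali. Rps27l, a relative outside the rule, had 0.34. Among all genes this interaction was positive for 0.562% and negative for 0.137%. At 2000 pg, 1 member differed, Rpl23a, at −0.68, with 144 to 289 counts per library. There 0.6% of all genes were negative and 2.12% positive. None of the 7 passed without IFN200 replicate 1 or without Combo200 replicate 3, and Rpl23a did not pass in DESeq2.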

How the results depend on the processing

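Under the alternatives run, 65 to 71 members were called lower in Oxali, 61 to 70 in Combo200 and 63 to 71 in Combo2000 against Ctrl, and at most 4, 6 and 4 higher. Over libraries left out, 68 to 71, 66 to 68 and 68 to 72 were called in either direction, and 65 to 69 and 72 to 74 in the combinations against IFNγ at 200 and 2000 pg. The median of all genes shifted by less than 0.1 under every scaling. Counts below 20 were less steady. In IFN200 1 member was called without the filter, and 0 to 0 over libraries left out. In IFN2000 the counts were 12 with the length correction, and 3 to 56 over libraries left out. In Combo200 against Oxali they were 22 without the filter, 20 with only the groups compared, 20 with the length correction, 21 with length and GC, and 0 to 14 over libraries left out. In Combo2000 against Oxali they were 1 with upper-quartile scaling, 1 with DESeq2 scaling, 13 without the filter, 12 with the length correction, 11 with length and GC, and 0 to 6 over libraries left out. The interaction at 200 pg gave 4 with upper-quartile scaling, 21 without the filter, 16 with only the groups compared, 13 with the length correction, 11 with length and GC, and 0 to 10 over libraries left out. The interaction at 2000 pg gave 3 with the length correction, 3 with length and GC, 0 in DESeq2, and 0 to 5 over libraries left out. The cause was not tested. Shares of all genes called under these alternatives are not given here, so the counts describe members only.

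With the replicate number as a block, 7 members were called in IFN2000, 1 in Combo200 against Oxali, 0 in Combo2000 against Oxali and 0 in the interaction at 200 pg. With the block and the length and GC correction, 8 were called in IFN2000 and 3 in the interaction at 2000 pg. Numbers are shared without evidence of pairing.

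Reversals of sign came only with the corrections. In Oxali these were Rplp0 at 0.07 (length and GC) and 0.07 (the same with the block), Rplp1 at 0.02 (length), Rps27 at 0.07, 0.10 and 0.10 (length, length and GC, and the latter with the block), Rpl41 at 0.17, 0.11 and 0.11, and Rps21 at 0.13, 0.15 and 0.15. In Combo2000 they were Rplp1 at 0.05 and Rpl36 at 0.10 (length), Rps27 at 0.24, 0.27 and 0.26, and Rps21 at 0.23, 0.25 and 0.23. Of all values of named genes under alternatives, 3870 kept their side of the threshold and direction, 56 newly passed, 74 no longer passed and 20 reversed. The correction for transcripts under 600 bases rests on 429 other genes.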
